A study of Mus musculus with 10 samples.

Results

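Described here are the HOX, T-box, forkhead and limb transcription factor genes of cultured mouse embryonic stem cells. They were taken by symbol from the deposited table: the numbered Hox, Tbx (except Tbx3), Fox, Msx, Dlx, Meis, Prrx and Twist genes and the sine oculis homeobox genes such as Six2, at 1 TPM or more in at least 2 of 10 libraries. TPM is an expression unit corrected for transcript length and library total. Of 20494 lines in the table, the first 48.1% have a symbol beside its own value. In these lines 55 symbols matched and 40 passed the level: 16 HOX, 2 Meis, 6 T-box and 10 forkhead genes and 6 genes of limb and mesenchyme (Msx2, Prrx1, Six2, Six4, Twist1, Twist2). The 15 that did not pass were Dlx2, Dlx3, Dlx4, Dlx5, Dlx6, Foxa1, Foxn1, Foxp2, Hoxd12, Msx3, Six6, Tbx5, Tbx20, Tbx21 and Tbx22. The highest value among them was 0.993 TPM, for Tbx21, while Tbx1, just inside, reached 1.34, 1.04 and 1.02 TPM in its 3 highest libraries. A further 65 matching symbols stand in the lower lines and were not analysed here. The level was reached in 1 condition alone by Hoxa2 and Hoxb1, in SL, and by Tbx6, in LCDM, so a difference between conditions was built into the choice of these 3. Hoxc11 reached it in 2iL and 2iL-F alone, Hoxa4 in SL and 2iL alone and Meis1 in SL and A2iL alone. Hoxb6, Hoxc5 and Tbx4 reached it in SL, A2iL and 2iL-F alone, and Msx2 in SL, A2iL and LCDM alone. Their differences from the remaining conditions were likewise part of the choice. Some others, such as Prrx1 and Twist2, missed it in 1 condition. In all 10 libraries, 17 members had 1 TPM or more.

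The cells were 1 line with the strain label C57BL6X129S6F1, sequenced as bulk RNA in 5 culture conditions with 2 libraries each, numbered 3 and 5. All received 1000 IU of the cytokine mLIF. SL was serum medium with 15% FBS and none of the inhibitors named below. The other conditions used the serum-free medium N2B27 with 3 µM Chir99021, which inhibits the kinase GSK3. The conditions 2iL and 2iL-F also had the MEK inhibitor PD0325901 at 1 µM, which together with Chir99021 is called the 2i medium here. A2iL had the Src kinase inhibitor CGP77675 at 1.5 µM instead, and LCDM had Dim and Mih at 2 µM each, as the labels abbreviate them. By their labels SL, 2iL, A2iL and LCDM were grown on feeder cells, and 2iL-F without. Nothing in the labels says that the 2 libraries of a condition came from separate cultures, and the p-values therefore rest on a spread that may be technical. The read depth of a library cannot be recovered from TPM and is unknown.

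HOX genes lie in clusters and encode homeodomain proteins that give cells their position along the body axis, often together with Meis and Pbx proteins. T-box proteins pattern mesoderm and limbs, forkhead proteins range from partners of Nodal signalling to regulators of mitosis, and Prrx1, Twist1 and Twist2 mark the mesenchyme of limb and connective tissue. Fibroblasts keep the HOX code of the place they came from, whereas pluripotent cells hold most HOX genes under Polycomb repression.

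To give the sequence beside the values, the 250 bases before the RefSeq start of the 3 mesenchymal genes with the widest range over the conditions follow, 5′ to 3′ on the gene's strand in GRCm38.p6, with each CpG in capitals.
Prrx1, chr1:163313651-163313900, minus strand: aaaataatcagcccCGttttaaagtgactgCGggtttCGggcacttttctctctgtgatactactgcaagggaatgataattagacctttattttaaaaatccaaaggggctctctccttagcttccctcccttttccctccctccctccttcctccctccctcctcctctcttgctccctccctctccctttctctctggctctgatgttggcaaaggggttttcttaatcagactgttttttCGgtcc
Twist1, chr12:33957421-33957670, plus strand: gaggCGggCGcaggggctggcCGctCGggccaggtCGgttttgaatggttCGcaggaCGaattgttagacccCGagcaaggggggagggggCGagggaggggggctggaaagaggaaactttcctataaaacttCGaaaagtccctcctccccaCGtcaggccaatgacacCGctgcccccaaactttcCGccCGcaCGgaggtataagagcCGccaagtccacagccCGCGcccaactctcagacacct
Twist2, chr1:91801211-91801460, plus strand: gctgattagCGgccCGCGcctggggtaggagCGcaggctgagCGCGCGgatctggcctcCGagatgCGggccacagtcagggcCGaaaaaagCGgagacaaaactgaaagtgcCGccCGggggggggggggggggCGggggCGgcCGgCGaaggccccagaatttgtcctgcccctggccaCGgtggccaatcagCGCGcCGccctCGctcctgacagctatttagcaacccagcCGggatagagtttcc
The window of Prrx1 held 4 CpG, that of Twist1 18 and that of Twist2 23. Of the 40 members, 22 matched a RefSeq window, and their median was 14 CpG against 6 over all 32851 windows of the table. Both strands were searched for CANNTG, the E-box letters bound by proteins such as Twist, for TATAAA and for TGATNNAT, a HOX and cofactor motif. CANNTG was in 50% of the members' windows and in 66.2% of all, TATAAA in 22.7% and 12.4%, and TGATNNAT in 13.6% and 7.68%. Of the windows printed, that of Twist1 held TATAAA once and those of Prrx1 and Twist2 held none of the 3 motifs. These matches are descriptions of the letters in a window.

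Feeder RNA was read from collagen genes of fibroblasts, and it went against the feeder labels. Col1a1, which encodes the main chain of type I collagen, was at 366 and 393 TPM in SL, 407 and 381 in A2iL, 108 and 105 in LCDM, 0.200 and 0.264 in the libraries labelled 2iL, and 1058 and 974 in the libraries labelled 2iL-F. The libraries labelled as grown without feeder thus had the highest Col1a1, and those labelled 2iL, with feeder, the lowest. 2iL and 2iL-F are used below as names of libraries only. Of 33 fibroblast markers, 30 could be read. Their summed level ranged from 3630 to 3808 TPM in SL, 595 to 618 in 2iL, 2999.98 to 3077 in A2iL, 955 to 958 in LCDM and 4647 to 4823 in 2iL-F. In both 2iL libraries Lox, Dcn, Bgn, Dpt, Fap, Postn and Thbs2 were at 0, and 8 of the 30 markers had 1 TPM or more. Pou5f1, the pluripotency factor Oct4, was between 991 and 1367 TPM in all 10 libraries. In bulk RNA, fewer cells of a type and less RNA per cell cannot be told apart.

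The 40 members were most often highest in serum. In SL 23 members had their highest condition mean, while 31.8% of all lines did. LCDM was the lowest condition for 15 members and for 11.6% of all lines, and 2iL for 14 members and for 31.7% of all lines. Differences among the 5 conditions passed the test for 39 members (limma F test with Benjamini-Hochberg adjustment), as they did for 90.1% of all 14578 lines tested, so that count says little about the members. The exception was Tbx1, a pharyngeal T-box gene, between 0.565 and 1.34 TPM in every condition (adjusted p = 0.947). In each condition all 40 members agreed within 1.5-fold between the 2 libraries on the TPM + 1 scale.

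**Figure D1:**
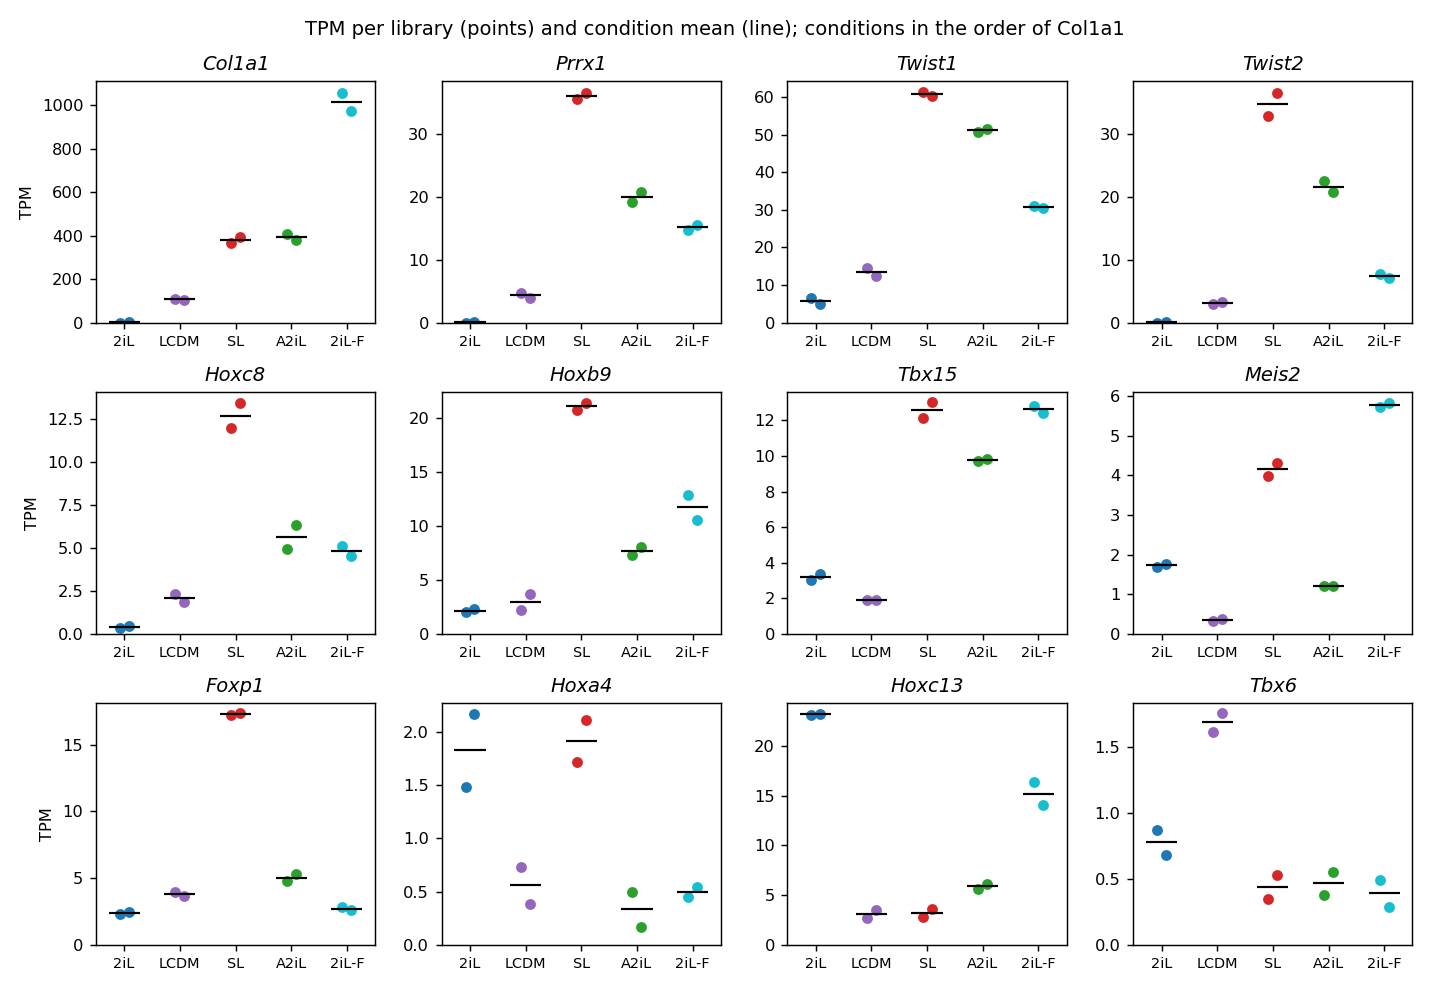
TPM (vertical axis) of Col1a1 and 11 members in each library, with the 5 conditions on the horizontal axis ordered by Col1a1; points are libraries and lines condition means (n = 2). Prrx1, Twist1, Twist2 and Hoxc8 peak in SL and not in 2iL-F, where Col1a1 peaks, and Hoxc13 is highest in the libraries labelled 2iL.

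Which members moved with fibroblast RNA and which with the medium was read from a pair of comparisons that have no library in common. In 2iL-F against 2iL the labelled medium is the same and Col1a1 differs most. In A2iL against SL the medium differs and Col1a1 is alike, although Col3a1 was not (29.2 and 28.8 TPM in SL, 128 and 121 in A2iL). Other fibroblast markers also differed in this pair, in both directions. Of 30 tested, 9 were higher and 13 lower in A2iL, against 21.9% and 31.9% of all lines. Dcn differed by 3.84 and S100a4 by -3.19 in log2(TPM + 1). Fibroblast RNA as a whole was therefore not alike in this pair. Changes below are differences of log2(TPM + 1) ± SE with adjusted p from limma over all 14578 lines, and for genes of low TPM they are smaller than the true change. In 2iL-F against 2iL, 19 members were higher, against 29.2% of all lines, and 8 were lower, against 32.5%. The members' median change was 0.17 and that of all lines -0.02. In A2iL against SL, 1 member was higher, against 21.9% of all lines, and 27 were lower, against 31.9%. Here the members' median was -0.51 and that of all lines -0.07. A total of 15 members were both higher in 2iL-F than 2iL and lower in A2iL than SL: Hoxb6, Hoxb9, Hoxc5, Hoxc6, Hoxc8, Hoxc9, Hoxc10, Meis1, Meis2, Msx2, Prrx1, Six2, Tbx15, Tbx18 and Twist2. At least 1 alternative took away the 2iL-F call of Meis1, Msx2 and Six2 and the A2iL call of Hoxc5, Hoxc6, Meis1 and Tbx18. Another 7 members were lower in A2iL than SL and passed in neither direction between 2iL-F and 2iL, among them Foxp1, Hoxa2, Hoxa10, Hoxb1, Hoxd13 and Tbx2. Of these, Hoxa2 and Hoxb1 had passed the level in SL alone. The 4 higher in 2iL-F that passed in neither direction in A2iL were Foxp4, Hoxd8, Tbx4 and Twist1. A further 5, among them Foxj1, Foxj2, Hoxa4 and Six4, were lower in both comparisons, and Hoxc13 alone was lower in 2iL-F and higher in A2iL. Foxh1 and Tbx6 were lower in 2iL-F without a call in A2iL, and 6 members passed in neither. Hoxb6, Hoxc5 and Tbx4 had passed the level in SL, A2iL and 2iL-F alone, so the direction of their 2iL-F calls was part of the choice. Hoxa4 had passed it in SL and 2iL alone, so the direction of both its calls was too. Among the members named outside the 15, at least 1 alternative took away the 2iL-F calls of Foxj1, Foxp4, Six4 and Tbx6 and the A2iL call of Foxj1.

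**Figure D2:**
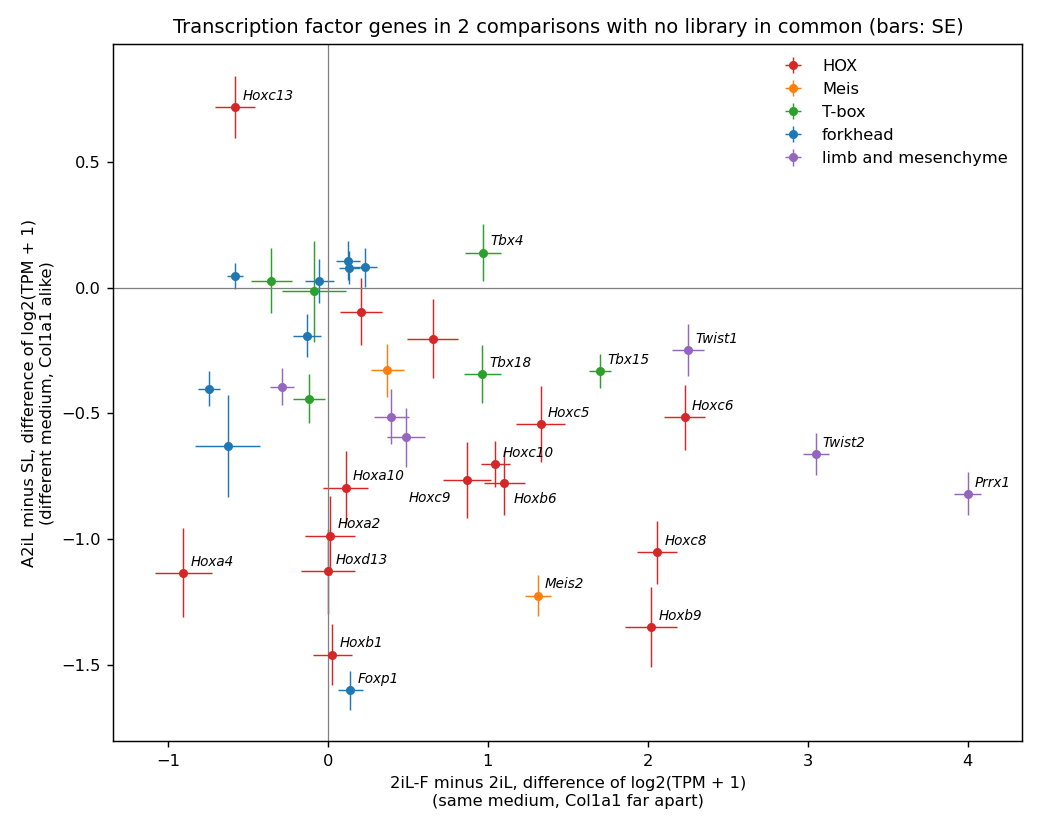
Each point is a member, with its difference of log2(TPM + 1) between 2iL-F and 2iL on the horizontal axis and between A2iL and SL on the vertical axis; bars are SE and colours the gene families. Prrx1, Twist2, Twist1, Hoxc6, Hoxc8 and Hoxb9 lie furthest to the right, and Foxp1 and Hoxb1 lie lowest among the points shown, with horizontal values of 0.14 and 0.03.

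Against SL the members were also lower in the other serum-free conditions, and these comparisons share the SL libraries. In LCDM, 32 members were lower than in SL, against 33.7% of all lines, and 3 were higher (Foxm1, Foxn2, Tbx6), against 32.2%. Of these 3, Tbx6 had passed the level through LCDM. The call of Foxm1 (0.34 ± 0.09, adjusted p = 0.00867) was lost without SL library 3 (adjusted p = 0.0645), and that of Foxn2 (0.21 ± 0.08, adjusted p = 0.0379) in 9 alternatives, among them the replicate block and those without either SL library (adjusted p of 0.0504 to 0.218). The members' median change in LCDM was -1.03. For the mean of the 4 N2B27 conditions, 28 members were lower than in SL, against 39% of all lines, and 6 were higher (Foxh1, Foxj3, Foxm1, Foxn2, Hoxc13, Tbx6), against 32.5%. All of these 6 but Hoxc13 lost the call in at least 1 alternative (adjusted p of 0.0505 to 0.412). When the 4 libraries with the 2iL and 2iL-F labels were left out, of 39 members tested, 31 were lower in that mean and 3 higher. The counts for A2iL and for LCDM without those libraries were 27 and 31 lower, of 39 tested. In the libraries labelled 2iL, 26 members were lower than in SL, against 40.9% of all lines, and 6 were higher, against 36.7%. In those labelled 2iL-F, 18 were lower, against 37.3%, and 5 were higher, against 28.1%. The 32, 28, 26 and 18 lower members each include Hoxa2 and Hoxb1. Both had passed the level in SL alone, so their being lower was built into the choice. The fibroblast markers differed less between A2iL and SL, with 9 of 30 higher and 13 lower, than between LCDM and SL, with 0 higher and 28 lower. Their part in these counts was not tested.

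**Figure D3:**
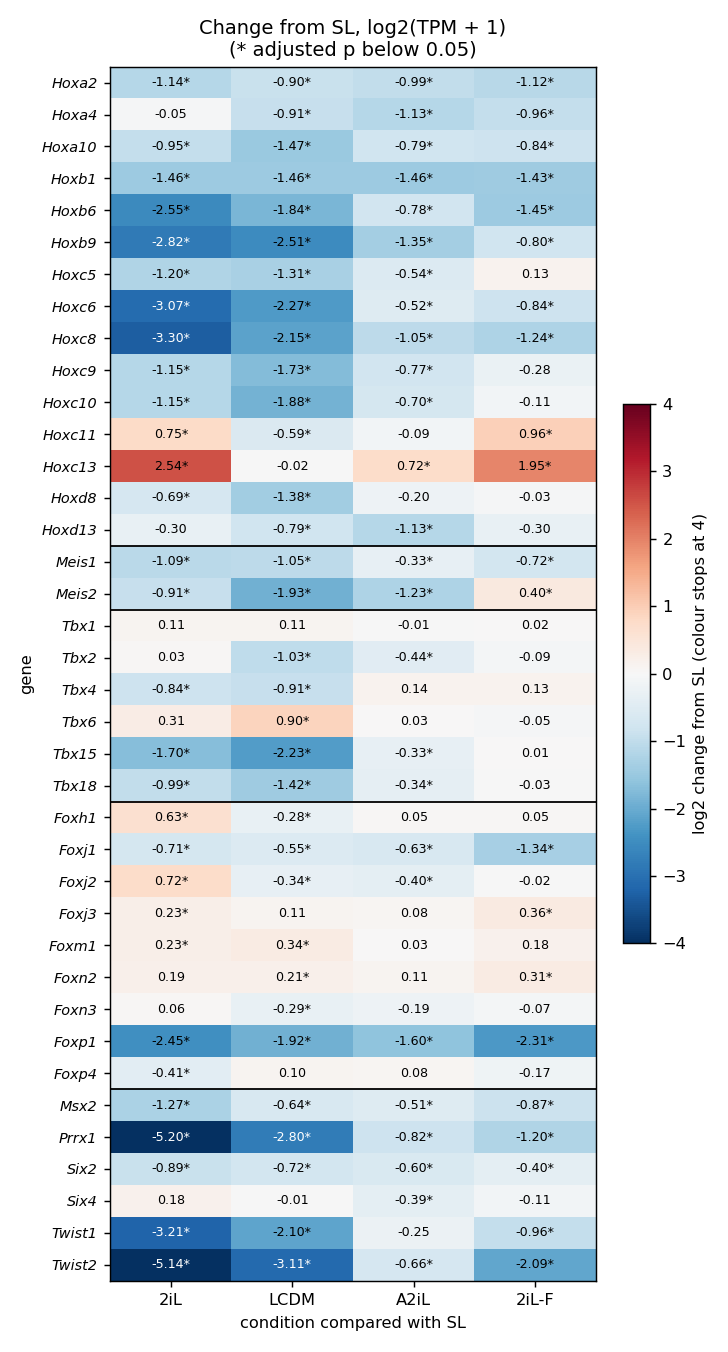
Heat map of the difference of log2(TPM + 1) from SL for the members (rows, by family) in the 4 serum-free conditions (columns), with the value printed and an asterisk where the adjusted p was below 0.05. Most HOX, Meis, Prrx1 and Twist rows are below 0 in several columns, while Hoxc13 stands at 2.54 in 2iL and 1.95 in 2iL-F.

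Among the HOX genes, 8 of 16 were higher in 2iL-F than 2iL and 3 were lower, against 29.2% and 32.5% of all lines. In A2iL 13 were lower than in SL and 1 higher, against 31.9% and 21.9%. All 7 HoxA and HoxB members were lower than in SL in each of A2iL, LCDM and 2iL-F, but only Hoxb6 and Hoxb9 of them were higher in 2iL-F than 2iL. Of these 7, Hoxa2 and Hoxb1, also counted among the 13, had passed the level in SL alone. Their being lower than in SL was therefore built into the choice. Of the 7 HoxC members, 5 were higher in 2iL-F than 2iL (Hoxc5, Hoxc6, Hoxc8, Hoxc9, Hoxc10) and Hoxc13 was lower. Against SL, 5 of the 7 were lower and 1 higher in A2iL, 6 lower and 0 higher in LCDM, and 2 lower and 2 higher in 2iL-F. The shares of all lines lower and higher than in SL were 31.9% and 21.9% in A2iL, 33.7% and 32.2% in LCDM and 37.3% and 28.1% in 2iL-F. The HoxC counts in 2iL-F lay near these shares and say little about the cluster. Whether the clusters differ was not tested.

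Hoxb9, a gene of the thoracic axis and the highest HoxB member, had 20.7 and 21.4 TPM in SL, then 12.9 and 10.6 in 2iL-F, 7.28 and 8.02 in A2iL, 2.23 and 3.63 in LCDM and 2.01 and 2.24 in 2iL. Both SL libraries were above all others and the 2iL and LCDM libraries overlapped at the bottom. The level was 2.02 ± 0.16 higher in 2iL-F than 2iL (adjusted p = 1.01e-05) and changed by -1.35 ± 0.16 from SL to A2iL (adjusted p = 0.000164). Hoxb6 had 5.33 and 4.41 TPM in SL and 2.83 and 2.05 in A2iL, followed by 1.14 and 1.16 in 2iL-F and 0.644 and 0.629 in LCDM. It was listed at 0 in both 2iL libraries.

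Hoxc6 and Hoxc8, neighbours that act in the thoracic axis and forelimb, were highest in SL and below 1 TPM in the libraries labelled 2iL. Hoxc6 had 11.6 and 12.8 TPM in SL, 7.83 and 8.61 in A2iL, 5.98 and 6.75 in 2iL-F, 1.94 and 1.54 in LCDM and 0.400 and 0.753 in 2iL. Hoxc8 had 11.98 and 13.4 TPM in SL, 4.93 and 6.32 in A2iL, 5.08 and 4.50 in 2iL-F, 2.30 and 1.87 in LCDM and 0.341 and 0.436 in 2iL. For Hoxc6 no 2 conditions overlapped, and for Hoxc8 only A2iL and 2iL-F did. From 2iL to 2iL-F, Hoxc6 rose by 2.23 ± 0.13 (adjusted p = 1.45e-06) and Hoxc8 by 2.06 ± 0.12 (adjusted p = 1.97e-06). From SL to LCDM the changes were -2.27 ± 0.13 for Hoxc6 (adjusted p = 1.09e-06) and -2.15 ± 0.12 for Hoxc8 (adjusted p = 1.25e-06). Both genes were also lower in A2iL than SL, Hoxc8 by the larger change of -1.05 ± 0.12 and Hoxc6 by -0.52 ± 0.13, where the adjusted p of Hoxc6 was 0.00924. That call was lost with a pseudocount of 0.1, without SL library 5 or without A2iL library 3 (adjusted p of 0.0600 to 0.0710).

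Toward the 5′ end of the same cluster the direction turned. Hoxc13, the last gene of the cluster and a regulator of hair and nail keratins, had 23.1 and 23.3 TPM in 2iL, 16.4 and 14.1 in 2iL-F, 5.63 and 6.12 in A2iL, 2.79 and 3.59 in SL and 2.73 and 3.51 in LCDM. Its 4 libraries in the 2i medium (2iL and 2iL-F) were above the other 6, and SL and LCDM overlapped. The change from A2iL and LCDM to the 2i medium was 1.90 ± 0.09 (adjusted p = 3.62e-07), with 2iL-F lower than 2iL by a change of -0.58 ± 0.13 (adjusted p = 0.00356). Hoxc11, the next member, was low, with 2.13 and 1.83 TPM in 2iL, 2.17 and 2.72 in 2iL-F, 0.926 and 0.619 in SL, 0.675 and 0.633 in A2iL and 0.0962 and 0.262 in LCDM. Again the 2i medium stood above the rest (1.197 ± 0.10 over A2iL and LCDM, adjusted p = 8.93e-06). Hoxc11 had passed the level in the 2i medium alone, so this difference is a description of that choice. The 2iL-F libraries were just above the 2iL libraries, a difference of 0.21 ± 0.13 that did not pass the test (adjusted p = 0.214). Measured from the end of Hoxc13 on chromosome 15, the ends of the members lie at 28.9 kb for Hoxc11, 43.1 for Hoxc10, 56.3 for Hoxc9, 65.3 for Hoxc8, 83.1 for Hoxc6 and 88.6 for Hoxc5. Along this line 2iL was above SL for Hoxc13 and Hoxc11 (2.54 ± 0.13 and 0.75 ± 0.13) and below it for the 5 others, by changes of -1.15 for both Hoxc10 and Hoxc9, -3.30 for Hoxc8, -3.07 for Hoxc6 and -1.20 for Hoxc5. The annotated Hoxc5 (mm10, chromosome 15, 102967443 to 103017429, plus strand) overlaps Hoxc6, Hoxc8, Hoxc9 and Hoxc10 on its own strand, so the counting could split reads among these 5 and their separate levels are uncertain. Hoxc13 (102921103 to 102928814) and Hoxc11 (102954427 to 102957708) overlap no annotated gene.

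**Figure D4:**
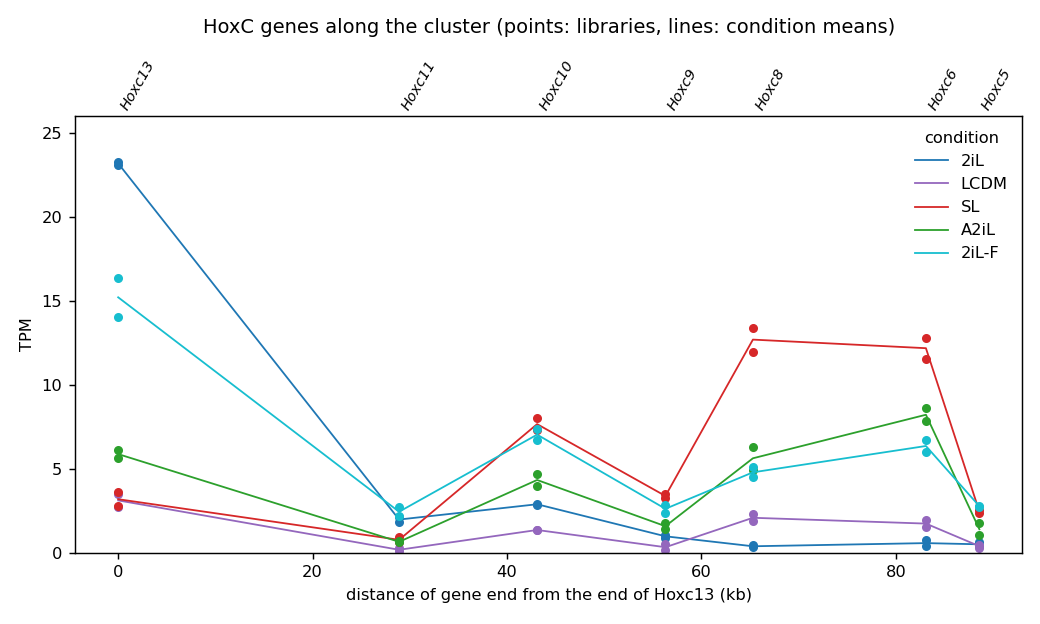
TPM of the 7 HoxC members (vertical axis) against the distance of each gene's end from the end of Hoxc13 in kb (horizontal axis); points are libraries, lines join condition means (n = 2). The lines of 2iL and 2iL-F start highest at Hoxc13, and the SL line is highest at Hoxc8 and Hoxc6, where 2iL is below 1 TPM.

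In the HoxA cluster, Hoxa4 had 1.72 and 2.11 TPM in SL and 1.48 and 2.17 in 2iL, which overlapped, and 0.499 and 0.172 in A2iL, 0.732 and 0.388 in LCDM and 0.449 and 0.548 in 2iL-F. Its change was -0.91 ± 0.18 from 2iL to 2iL-F (adjusted p = 0.00213) and -1.13 ± 0.18 from SL to A2iL (adjusted p = 0.000793). The gene had passed the level in SL and 2iL alone, so both directions were part of the choice. Hoxa4 overlaps Hoxa3 and antisense genes, and use of strand in the counting is not given in the sources used here, so their reads may not be told apart. Hoxb1, expressed in the hindbrain, had 2.04 and 1.49 TPM in SL, 0.0385 in 1 library labelled 2iL-F, and was listed at 0 in the other 7 libraries. It had passed the level in SL alone, and its SL to A2iL change of -1.46 ± 0.12 (adjusted p = 2.23e-05) is a description of that choice. The same holds for Hoxa2, whose SL to A2iL change was -0.99. Hoxa10 and Hoxd13 were lower in A2iL than SL by changes of -0.79 and -1.13 (adjusted p = 0.00178 and 0.000629), and neither passed between 2iL and 2iL-F (adjusted p = 0.536 and 1).

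The Meis genes encode cofactors of HOX proteins, and both were higher in 2iL-F than 2iL and lower in A2iL and LCDM than SL, with calls of Meis1 that were lost in several alternatives. Meis2 had 5.74 and 5.83 TPM in 2iL-F, 3.998 and 4.30 in SL, 1.70 and 1.77 in 2iL, 1.198 and 1.206 in A2iL and 0.315 and 0.381 in LCDM. No 2 conditions overlapped. Meis2 rose by 1.31 ± 0.08 from 2iL to 2iL-F (adjusted p = 2.14e-06) and changed by -1.23 ± 0.08 from SL to A2iL (adjusted p = 5.49e-06). Meis1 was lower throughout, from 0.212 TPM in LCDM to 1.73 in SL, and its change from 2iL to 2iL-F was 0.37 ± 0.11 (adjusted p = 0.0143), which turned to -0.15 after quantile normalisation and lost its call without 2iL library 3 or 2iL-F library 5 (adjusted p of 0.0516 to 0.0818). From SL to A2iL Meis1 changed by -0.33 ± 0.11 (adjusted p = 0.0283), and this call was lost in 7 alternatives: a pseudocount of 0.1, quantile normalisation, without either SL library, without either A2iL library, and without the 2iL and 2iL-F libraries (adjusted p of 0.0507 to 0.139). Of 8 other HOX cofactors and Cdx genes tested, 3 were higher and 2 lower in 2iL-F than 2iL, and 1 was higher and 5 lower in A2iL than SL. The shares of all lines for these 4 counts were 29.2%, 32.5%, 21.9% and 31.9%. Cdx2, which switches on posterior HOX genes, differed by 0.75 ± 0.10 in the first of these comparisons and by -1.54 ± 0.10 in the second, with adjusted p of 0.000232 and 5.13e-06. Cdx4 differed by -1.31 ± 0.13 in A2iL against SL (adjusted p = 5.27e-05) and by -0.03 without a call in 2iL-F against 2iL. Of 23 Polycomb and trithorax genes, 4 were higher and 8 lower in 2iL-F than 2iL, and 5 were higher and 8 lower in A2iL than SL, counts that, apart from the 4, lay close to those shares. Ezh2, the main methyltransferase of Polycomb complex PRC2, differed by -0.95 ± 0.06 in 2iL-F against 2iL (adjusted p = 2.20e-06) and by -0.09 ± 0.06 without a call in A2iL against SL (adjusted p = 0.224).

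Of the 6 T-box genes, 3 were higher in 2iL-F than 2iL (Tbx4, Tbx15, Tbx18) and Tbx6 was lower, against 29.2% and 32.5% of all lines. In A2iL, 3 were lower than in SL (Tbx2, Tbx15, Tbx18) and 0 higher, against 31.9% and 21.9%, with changes from -0.44 to -0.33 for the 3. The A2iL call of Tbx18 was lost in 5 alternatives, among them those without SL library 5 or either A2iL library (adjusted p of 0.0512 to 0.198), and the 2iL-F call of Tbx6 in 4, among them those without either 2iL library or 2iL-F library 5 (0.0522 to 0.210). Tbx15, which acts in limb and skeletal mesenchyme, had 12.8 and 12.4 TPM in 2iL-F, 12.1 and 13.0 in SL, 9.73 and 9.85 in A2iL, 3.04 and 3.34 in 2iL and 1.89 and 1.88 in LCDM. SL and 2iL-F overlapped, and the other conditions stood apart. Its change was 1.70 ± 0.07 from 2iL to 2iL-F (adjusted p = 1.74e-07), -0.33 ± 0.07 from SL to A2iL (adjusted p = 0.00361) and -2.23 ± 0.07 from SL to LCDM (adjusted p = 3.52e-08). Tbx18, of somite and heart mesenchyme, and Tbx4, of hindlimb and lung mesenchyme, had the same 2 lowest conditions, between 0.636 and 1.45 TPM in LCDM and 2iL, against 2.23 to 3.83 TPM elsewhere. Tbx4 had passed the level in the other conditions alone, so its low place in these 2 was part of the choice. Tbx6, a gene of paraxial mesoderm, ran the other way, with 1.62 and 1.76 TPM in LCDM, 0.875 and 0.685 in 2iL, and 0.290 to 0.557 in the other 6 libraries. It had entered through LCDM, so its change from SL to LCDM (0.90 ± 0.13, adjusted p = 0.000300) is a description. Tbx2, a repressor, was at 0.560 to 0.617 TPM in LCDM, 1.25 to 1.54 in A2iL and 2.02 to 2.48 in the other conditions.

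The forkhead genes had the median change nearest to 0 of the families in both comparisons. It was 0.01 in 2iL-F against 2iL, with 1 of 10 higher and 3 lower against 29.2% and 32.5% of all lines, and -0.08 in A2iL against SL, with 0 higher and 4 lower against 21.9% and 31.9%. The 1 higher, Foxp4, lost its call in at least 1 alternative, as did Foxj1 in both comparisons. Foxp1, a regulator of lung, heart and lymphoid development, was the exception in size. It had 17.2 and 17.3 TPM in SL, 4.76 and 5.28 in A2iL, 3.97 and 3.68 in LCDM, 2.81 and 2.58 in 2iL-F and 2.28 and 2.42 in 2iL, with no overlap between conditions. Its change was -1.60 ± 0.08 from SL to A2iL (adjusted p = 9.53e-07) and 0.14 ± 0.08 without a call from 2iL to 2iL-F (adjusted p = 0.149). Against the mean of the N2B27 conditions the difference was -2.07 ± 0.06 (adjusted p = 1.55e-08).

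The other forkhead genes with 10 TPM or more were at 5.27 TPM or more in every library. Foxp4 had 68.5 and 72.9 TPM in SL, 56.8 and 49.7 in 2iL, 75.5 and 74.2 in A2iL, 72.0 and 79.7 in LCDM and 65.0 and 60.1 in 2iL-F. Its 4 libraries in the 2i medium were below the other 6, by a change of -0.38 ± 0.05 from A2iL and LCDM (adjusted p = 0.000351). Foxh1, the DNA-binding partner of SMAD proteins in Nodal signalling, had 87.9 and 88.0 TPM in 2iL, 54.4 to 59.8 in SL, A2iL and 2iL-F, and 46.8 and 45.8 in LCDM. The 2iL libraries were highest and the LCDM libraries lowest, and the change from 2iL to 2iL-F was -0.58 ± 0.05 (adjusted p = 2.01e-05). Foxj3 had 9.23 and 9.14 TPM in SL, 10.38 and 11.5 in 2iL, 9.73 and 9.80 in A2iL, 10.36 and 9.64 in LCDM and 12.1 and 12.1 in 2iL-F. Foxn2 had 11.6 and 11.3 TPM in SL, 12.3 and 14.2 in 2iL, 12.4 and 12.5 in A2iL, 14.1 and 12.8 in LCDM and 14.5 and 14.4 in 2iL-F. For both genes SL was below all 8 libraries in N2B27, by changes of 0.19 ± 0.05 for Foxj3 (adjusted p = 0.00901) and 0.21 ± 0.06 for Foxn2 (adjusted p = 0.0145) to the N2B27 mean. The call of Foxj3 was lost without SL library 5 or without the 2iL and 2iL-F libraries (adjusted p of 0.0617 to 0.149), and that of Foxn2 without either SL library (0.0594 to 0.0944). Foxj2 was highest in 2iL (13.1 and 12.4 TPM) and lowest in A2iL (5.27 and 5.38 TPM), while Foxm1, which drives mitotic genes, was between 20.0 and 28.2 TPM. Its SL and A2iL libraries overlapped, as did 2iL with both 2iL-F and LCDM, while SL and A2iL stayed below 2iL-F. Foxn3 was between 5.43 and 8.05 TPM. Foxj1, of motile cilia, was at most at 2.28 TPM, in SL. For 16 tested targets and regulators of forkhead O factors, 7 were higher and 4 lower in 2iL-F than 2iL, against 29.2% and 32.5% of all lines, and 6 were higher and 4 lower in A2iL than SL, against 21.9% and 31.9%.

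The limb and mesenchyme genes held the 3 largest changes between 2iL-F and 2iL. Prrx1, a homeobox gene of limb bud and connective tissue mesenchyme, had 35.5 and 36.5 TPM in SL, 19.2 and 20.7 in A2iL, 14.7 and 15.5 in 2iL-F, 4.74 and 3.89 in LCDM and 0 and 0.0149 in 2iL. Twist2, a dermal bHLH repressor, had 33.0 and 36.7 TPM in SL, 22.5 and 20.7 in A2iL, 7.74 and 7.04 in 2iL-F, 3.03 and 3.25 in LCDM and 0 and 0.0260 in 2iL. Twist1, its relative in mesoderm and neural crest, had 61.4 and 60.4 TPM in SL, 50.8 and 51.5 in A2iL, 31.1 and 30.5 in 2iL-F, 14.6 and 12.4 in LCDM and 6.41 and 5.01 in 2iL. All 3 genes had the same order of conditions with no overlap between neighbours. Twist1 kept 9.37% of its SL mean in 2iL, whereas Prrx1 kept 0.0207% and Twist2 0.0373%. From 2iL to 2iL-F the changes were 4.0 ± 0.09 for Prrx1 (adjusted p = 3.05e-09), 3.05 ± 0.08 for Twist2 (adjusted p = 1.34e-08) and 2.25 ± 0.10 for Twist1 (adjusted p = 3.54e-07). From SL to A2iL they were -0.82 ± 0.09 for Prrx1 (adjusted p = 7.63e-05), -0.66 ± 0.08 for Twist2 (adjusted p = 0.000209) and -0.25 ± 0.10 without a call for Twist1 (adjusted p = 0.0708, and 0.0178 to 0.0465 in 5 alternatives). From SL to LCDM they were -2.80 ± 0.09, -3.11 ± 0.08 and -2.10 ± 0.10 in the same order, with adjusted p of 3.34e-08, 1.77e-08 and 4.31e-07. Prrx1 (mm10, chromosome 1, 163245119 to 163313710, minus strand) and Twist2 (chromosome 1, 91801461 to 91848028, plus strand) each overlap annotated transcripts on both strands, and Twist1 (chromosome 12, 33957671 to 33959829, plus strand) overlaps none.

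Msx2, a target of BMP signalling, and Six2, of nephron progenitors and facial mesenchyme, were low, at 0.276 to 2.29 and 0.700 to 2.31 TPM, and highest in SL. Six4 was between 5.00 and 8.06 TPM, with the 2iL libraries highest and the A2iL libraries lowest. Of 19 other limb and mesenchyme transcription factors tested, 12 were higher and 5 lower in 2iL-F than 2iL, against 29.2% and 32.5% of all lines, and 1 was higher and 14 lower in A2iL than SL, against 21.9% and 31.9%. The largest differences between 2iL-F and 2iL were 2.63 ± 0.17 for Snai2, a regulator of epithelial to mesenchymal transition (adjusted p = 2.58e-06), and 2.12 ± 0.14 for Osr2, of limb and palate (adjusted p = 3.39e-06). Osr2 was also the 1 gene of that list higher in A2iL than SL (1.33 ± 0.14, adjusted p = 8.44e-05).

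The order of Col1a1 over the 5 conditions was 2iL below LCDM, below both SL and A2iL, below 2iL-F. None of the members, 0 of 40, had this order in full, against 1.95% of all lines tested, and 0 had the order of Col3a1 or of the summed fibroblast markers. Hoxb9, Hoxc5, Six2 and Tbx15 held 8 of the 9 relations in that order, as 5.66% of all lines did, and 13 members held 7, as 12.4% did. The 13 were Hoxb6, Hoxc6, Hoxc8, Hoxc9, Hoxc10, Hoxd8, Meis1, Meis2, Prrx1, Tbx4, Tbx18, Twist1 and Twist2. The most common order among the members, from low to high, was 2iL, LCDM, 2iL-F, A2iL, SL, shared by 7: Hoxb6, Hoxc6, Hoxc8, Meis1, Prrx1, Twist1 and Twist2. These 7 were lowest in the libraries with the lowest Col1a1, but SL, and not 2iL-F with the highest Col1a1, was at the top.

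Described by which libraries stood apart, 19 members had both SL libraries above all 8 N2B27 libraries, against 24.8% of all lines, and 2 (Foxj3, Foxn2) had both below, against 18%. With a gap of at least 1.5-fold on the TPM + 1 scale the 19 came to 6, against 5.1% of all lines: Foxp1, Hoxa2, Hoxb1, Hoxb9, Hoxc8 and Prrx1. None was below by that gap, against 3.26%. Of the 6, Hoxa2 and Hoxb1 had passed the level in SL alone, so their place here was built into the choice. The 4 libraries in the 2i medium were above the other 6 for Foxj3, Hoxc11 and Hoxc13, 3 members against 10.7% of all lines, and below them for Foxp1, Foxp4 and Msx2, 3 members against 10.8%. Hoxc11 had passed the level in the 2i medium alone and Msx2 in the other 6 libraries alone, so their places were built into the choice. With that gap Hoxc13 alone was left, against 2.13% of all lines above and 1.15% below. LCDM was below all others for 11 members (Foxh1, Foxn3, Hoxa10, Hoxc9, Hoxc10, Hoxc11, Hoxd8, Meis2, Tbx2, Tbx15, Tbx18), against 6.74%, and above them for Tbx6, against 11.1%. With the gap, Hoxc10 and Meis2 were left below, against 0.418%, and 0 above, against 0.631%. A2iL was lowest, without overlap, for 3 members, among them Foxj2 and Six4, against 7.59%, and highest for 0, against 5.41%. With the gap A2iL stood apart for 0 members, against 0.247% of all lines below and 0.967% above. For the 2i medium against A2iL and LCDM, limma called 18 members higher, against 29.4% of all lines, and 12 lower, against 34.5%. A pair of patterns was added after the values were seen. The 2iL libraries were below all others for 9 members, against 22.5% of all lines, and above for 4, against 20.8%. With the gap, 5 were left below (Hoxb6, Hoxc8, Prrx1, Twist1, Twist2), against 5.47%, and Foxj2 above, against 4.1%. The 2iL and LCDM libraries together, which had the lowest Col1a1, were below the other 6 for 16 members, against 13.1%, and above for Tbx6, against 12.6%. Of the 16, Hoxb6, Hoxc5 and Tbx4 had passed the level in the other 6 libraries alone, and Meis1 in SL and A2iL alone. Tbx6 had passed it in LCDM alone. Their places in this pattern were therefore part of the choice. With the gap, 8 were left below (Hoxb9, Hoxc6, Hoxc8, Prrx1, Tbx4, Tbx15, Twist1, Twist2), against 3.45%, and 0 above, against 0.624%.

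Set against collagen, the levels were not in a constant ratio. Per 100 TPM of Col1a1, Prrx1 had 9.49 TPM in SL, 5.07 in A2iL, 4.05 in LCDM and a low of 1.49 in 2iL-F. Twist1 had 16.1, 13.0, 12.6 and 3.03 TPM in the same conditions, and Twist2 had 9.18, 5.49, 2.95 and 0.728. In these 3 genes SL was highest and 2iL-F lowest. Tbx15 was more even, at 3.32, 2.49, 1.77 and 1.24 TPM, as was Hoxc10 at 2.02, 1.10, 1.27 and 0.693. Of the 40 members only Hoxc11 stayed within 2-fold over the 4 conditions, with a highest to lowest ratio of 1.45, and with Col3a1 in place of Col1a1 the count was 0. Of all lines tested, 0.281% stayed within 2-fold of Col1a1 and 0.0549% of Col3a1, so that a count of 0 or 1 says little about the members. The level of Hoxc11 in 2iL, where Col1a1 was near 0, was 81.0% of its highest condition mean. These ratios were not tested.

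**Figure D5:**
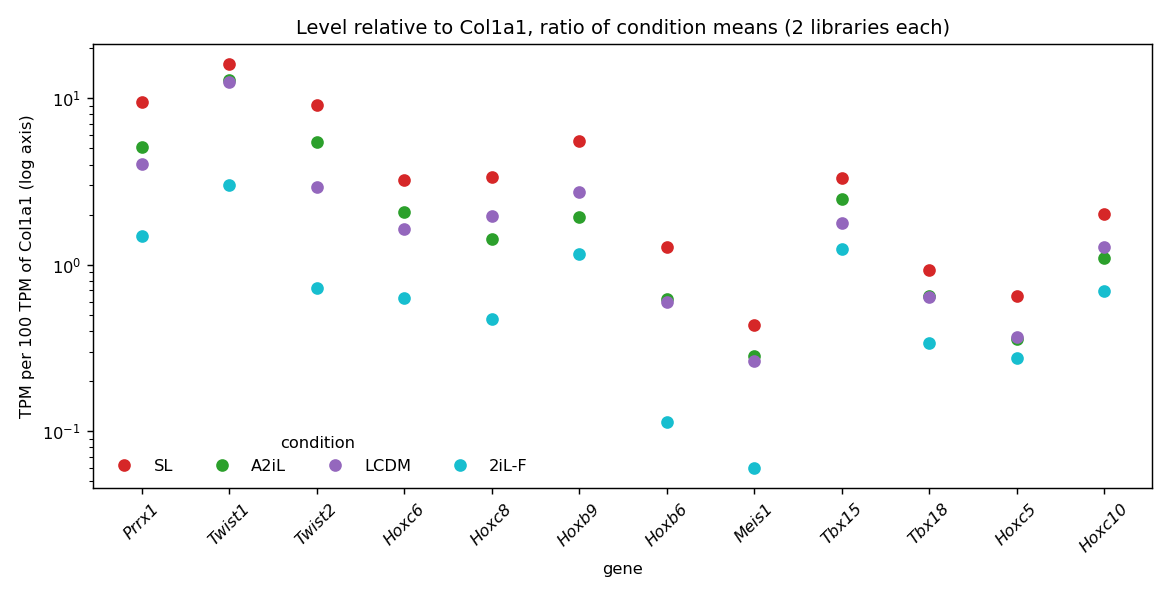
TPM of 12 members per 100 TPM of Col1a1 (vertical axis, log scale) in the 4 conditions with Col1a1 above 1 TPM; each point is a ratio of condition means (2 libraries each). In every gene shown the SL point is highest and the 2iL-F point lowest, with Prrx1 going from 9.49 to 1.49.

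Marker sums of other cell types differed between the conditions as well. Summed primitive endoderm markers were at 323 and 342 TPM in SL, 249 and 232 in A2iL, 139 and 135 in 2iL-F, 110 and 105 in LCDM and 73.3 and 77.7 in 2iL. From low to high this is the order of conditions that Hoxb6, Hoxc6, Hoxc8, Meis1, Prrx1, Twist1 and Twist2 shared. Of the 12 markers 11 could be read, Col4a2 was the highest at 112 TPM, and Pdgfra is also on the fibroblast list. The sum rested on the collagen IV genes Col4a1 and Col4a2. Without them, a choice made after seeing the data, it was 122 and 126 TPM in SL, 117 and 110 in A2iL, 73.5 and 72.4 in 2iL-F, 67.0 and 71.2 in 2iL and 60.9 and 55.8 in LCDM, an order in which LCDM and not 2iL was lowest. Among transcription factors of this lineage, Gata6 changed in the direction of the sum in both 2iL-F against 2iL and A2iL against SL, and Gata4 and Sox17 did not. Gata4 and Sox17 were lower in 2iL-F than 2iL, by changes of -1.55 ± 0.14 and -0.47 ± 0.16 (adjusted p = 2.13e-05 and 0.0334), and neither passed in A2iL against SL (adjusted p = 0.396 and 0.593). Sox17 was higher in LCDM than SL by 0.68 ± 0.16 (adjusted p = 0.00561). Gata6 was 0.88 ± 0.08 higher in 2iL-F than 2iL and changed by -0.42 ± 0.08 from SL to A2iL (adjusted p = 2.84e-05 and 0.00265). Lama1, a laminin chain, was higher than in SL by 0.46 ± 0.07 in A2iL and 0.65 ± 0.07 in LCDM (adjusted p = 0.000737 and 5.73e-05). Summed striated muscle markers were at 46.5 and 46.8 TPM in SL and at 6.06 to 26.01 in the other libraries, with 6 of 7 read. Without Acta1 the sum was 12.3 and 12.4 TPM in SL, 18.6 and 19.2 in LCDM and 5.996 to 11.4 elsewhere. Neural markers were at 46.4 and 49.4 TPM in SL and 8.32 to 37.7 elsewhere, with 7 of 8 read, and without Nes at 2.65 to 8.01 TPM in all libraries, highest in 2iL. Summed endothelial and blood markers were lowest in SL. The endothelial sum was 9.79 and 11.4 TPM in SL and 19.0 to 37.9 elsewhere, with 4 of 6 read, and the blood sum 20.7 and 24.9 TPM in SL and 26.5 to 41.9 elsewhere, with 4 of 6 read. The highest genes in these sums were Eng, at up to 29.8 TPM, and Cd68, at up to 37.5 TPM. The blood markers did not all follow their sum. The median change from SL of the 3 tested was -0.38 in 2iL, -0.40 in 2iL-F, -0.12 in LCDM and 0.49 in A2iL. Of 5 epidermal markers 1 could be read, at 0.06 TPM or less. Of 7 early mesoderm and streak genes tested, 4 were lower in A2iL than SL (Cdx2, Cdx4, Fgf8, Wnt3), 2 were higher (Cdx1, Eomes) and Gsc passed in neither direction. The changes ran from -3.82 ± 0.17 for Fgf8 to 0.55 ± 0.07 for Cdx1 (adjusted p = 5.77e-07 and 0.000340). Whether these cell types were present, and their part in the members' SL levels, was not tested.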

How the data were processed

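Bulk RNA of the cell line, from 2 libraries in each of 5 conditions, was extracted with a Qiagen kit and made into libraries with the NEBNext Ultra kit, per the labels' protocols. The submitters' processing notes name Bowtie2, RSEM, the build mm10, DESeq2 and R 3.4.2. The deposited values are TPM from the authors in 1 table of 20494 lines. Other versions and the use of strand are, in the sources used here, not given. The listed TPM sum to 71.0% to 73.0% of the full scale of the unit, by library. Depth per library, and so counting precision, is unknown.

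Symbols and values were checked against each other with 164 broadly expressed and 10 tissue-restricted genes in the first 48.1% of the lines, where 97.6% and 0% had at least 5 TPM. In the lower lines a symbol's own value separated such genes with an area under the curve of 0.582, and the value 1 line below with 0.934, so no lower line was named. Coordinates are GENCODE vM21 on mm10 and promoter windows RefSeq GRCm38.p6. The members, gene lists, comparisons and most alternatives were chosen with earlier results of these data known.

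Log2(TPM + 1) was fitted with limma 3.58.1 in R 4.3.3 (trended eBayes, 1 mean per condition, all 10 libraries, 5 residual degrees of freedom), on all 14578 lines with 1 TPM or more in at least 2 libraries. Tests were 2-sided, and Benjamini-Hochberg adjustment ran over these lines within each comparison, with a threshold of 0.05. The fit was tested on simulated data. Patterns, orders and ratios of condition means are descriptions without a test. Values in every library are given for up to 6 members per comparison and direction with the largest change of at least 1, and for members with 10 TPM or more in a condition mean that held a pattern, and others by range, except that a few genes are counted but not reported here by name or in figures. Other named genes come from the lists. Replicate numbers 3 and 5 have no stated meaning. Deviations from condition means correlated at -0.131 to 0.0746 over 10 pairs of conditions, so the numbers were not used as pairs.

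Each result was computed again with median-of-ratios scaling, with quantile normalisation, with a pseudocount of 0.1, with no filter or one of 5 TPM, with robust eBayes, with the nameable lines alone, with a replicate block, with a gap of 1.5-fold in the patterns and with each library left out in turn. Fits of A2iL and LCDM against SL that leave out the 2iL and 2iL-F libraries were set with them. The N2B27 mean without those libraries, the patterns of 2iL and of 2iL with LCDM, Col3a1 in the ratios, and marker sums without their leading genes were added after seeing the data. Python 3.11.15, numpy 2.4.6, pandas 2.3.3 and matplotlib 3.10.9 made the tables and figures.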

Additional observations from a re-analysis of the deposited data

Results flagged for a closer look

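Meis2 differed in direction between the 2 conditions that share the 2i medium. Against SL its change was 0.40 ± 0.08 in the libraries labelled 2iL-F and -0.91 ± 0.08 in those labelled 2iL (limma, Benjamini-Hochberg adjusted p of 0.00231 and 8.61e-06). The difference between these changes was 1.31 ± 0.08 (adjusted p = 2.14e-06), with all libraries of 2iL-F above and all of 2iL below both SL libraries. Summed fibroblast markers were 4735 TPM in 2iL-F and 607 TPM in 2iL, where only 8 of the 30 markers had 1 TPM or more. Mean Col1a1 was 1016 TPM in 2iL-F and 0.232 TPM in 2iL. The part of fibroblast RNA in this difference was not tested.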

How the results depend on the processing

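With the filter at 5 TPM only 21 of the 40 members were tested, so counts fell: 11 higher and 5 lower in 2iL-F against 2iL, 12 lower in A2iL, 15 in LCDM and 12 in the N2B27 mean against SL, 11 higher and 7 lower in the 2i medium against A2iL and LCDM, and 21 with any difference. In A2iL against SL 3 members were higher with median-of-ratios scaling and 2 with quantile normalisation, against 1, and the cause was not tested. Neither scaling moved the median of all lines by 0.1 (log2). With the 2iL and 2iL-F libraries left out, 3 members were higher in the N2B27 mean than in SL, against 6. With a gap of at least 1.5-fold, SL stood apart higher for 6 members and lower for 0, the 2i medium for 1 and 0, A2iL lower for 0, LCDM for 0 and 2, 2iL for 1 and 5, and 2iL with LCDM for 0 and 8. With Col3a1 as the reference 0 members had a ratio within 2-fold. Of 1622 member changes under these alternatives, 1572 kept their side of the threshold without a reversal and 4 reversed. Here and below, a reversal is a change of sign with a call in either fit, so changes of sign without any call count as kept. Those were Hoxa2 (-0.47, adjusted p = 0.0177), Meis1 (-0.15, 0.239) and Msx2 (-0.10, 0.429) in 2iL-F against 2iL after quantile normalisation, and Foxh1 (-0.12, 0.0538) in the N2B27 mean against SL with the 2iL and 2iL-F libraries left out. The cause was not tested.

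Leaving out 1 library, which assumes that the library left alone varies like the other conditions, kept 1890 of 1970 member changes, lost 67 calls, added 13 and reversed 0. Counts ranged from 17 to 19 higher and 6 to 8 lower in 2iL-F against 2iL, stayed at 1 higher and 20 to 28 lower in A2iL, 1 to 3 and 28 to 32 in LCDM, 3 to 6 and 26 to 29 in the N2B27 mean, 18 to 20 and 9 to 12 for the 2i medium, and 35 to 39 for any difference. The low count in LCDM, 1, came without SL library 3 or LCDM library 3, and that of 3 in the N2B27 mean without SL library 3. For libraries apart, higher then lower, ranges were 19 to 23 and 2 to 3 (SL), 3 to 4 and 3 to 4 (2i medium), 0 to 1 and 3 to 5 (A2iL), 1 to 3 and 11 to 14 (LCDM), 4 to 7 and 9 to 12 (2iL), and 1 to 2 and 16 to 17 (2iL with LCDM). Removing a library can only add members to these patterns. The replicate block kept 195 of 200 calls, weakened 4 and added 1, with 19 members higher and 7 lower in 2iL-F against 2iL. Unknown depth limits what can be said of members under 1 TPM, and TPM of overlapping HOX genes depend on how reads were shared.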
